A study of Mus musculus with 2 samples.

Results

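ATP-dependent chromatin remodellers, histone lysine demethylases and SET-domain proteins were examined as a group in Ago2-bound RNA. The members were all genes whose symbol begins with Chd and a digit, with Smarc, with Kdm and a digit, or with Setd, so they were chosen by name and not by their counts. Of 22609 genes in the tables, 50 were members, with 10 in the Chd family, 14 in the Smarc family, 16 in the Kdm family and 10 in the Setd family. The RNA came from TM4 cells, an established mouse Sertoli cell line. The cells were transfected with a miR-471-5p mimic, a synthetic form of the miRNA, or with a scramble control, and 48 h later RNA was immunoprecipitated with an antibody to Ago2, the protein that carries miRNAs to mRNAs. Each condition has 1 library, with 18628310 reads counted on genes for the mimic and 18717225 for the scramble control. No difference below therefore has a replicate check, and no p-value is given.

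Chromatin remodellers use ATP to slide, evict or exchange nucleosomes. The catalytic subunits of the SWI/SNF complexes are Smarca2 or Smarca4, and the other Smarc subunits build the complex around them, whereas Smarca1 and Smarca5 drive the ISWI complexes and Chd3, Chd4 and Chd5 the NuRD complex. Most Kdm proteins remove methyl groups from histone lysines with a JmjC domain, Kdm1a and Kdm1b use an amine oxidase domain instead, and SET domains add methyl groups to lysines. Many of these proteins help to set which genes can be transcribed, while some members have other roles, named below.

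The cell line was checked against markers of testis cells. The Sertoli transcription factor Sox9 had 1228 counts with the mimic and 1070 with the scramble control, and Gata4 had 341 and 365, whereas Fshr, the receptor for follicle-stimulating hormone, had 0 in both. Of the 11 Sertoli markers in the tables, 6 had at least 20 counts over both libraries. The summed levels of Leydig cell, germ cell and macrophage markers were between 1.55 and 7.66 CPM (counts relative to the TMM-scaled total of the library), against 123 and 112 CPM for the Sertoli markers. Acta2, a smooth muscle actin also listed as a peritubular myoid marker, had 73076 and 101778 counts, while Cnn1, Des and Myh11 of the same list had 6 to 17 counts each. Its part in the results below was not tested.

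The sequence that the design turns on is that of the transfected miRNA, shown here with its seed, nucleotides 2 to 8, in capitals. An mRNA that pairs with the whole seed carries the sequence ACTACGT, called a 7mer-m8 match, and an 8mer match has an A directly after it. The mature sequence, 5′ to 3′, is from RefSeq (GRCm38.p6).
mmu-miR-471-5p: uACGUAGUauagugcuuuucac

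Of the 46 members with at least 20 counts and an annotated coding region, 2 had a 7mer-m8 match in the longest 3′-UTR (4.35%) and 5 had one in the longest coding region (10.9%). Among all genes with at least 20 counts, 183 of 11747 (1.56%) had a match in the 3′-UTR and 511 of 11763 (4.34%) in the coding region. The members' coding regions were longer than most, with a median of 3561 nucleotides against 1413 for all genes. Their 3′-UTRs had a median of 1231 nucleotides against 1205. The part of length in these shares was not tested. The sites are shown with 10 bases on each side and the match in capitals, from GENCODE M21 transcripts of GRCm38.
Smarcc2, 3′-UTR: agagttcatcACTACGTaaggaaagct
Kdm5a, 3′-UTR: atatggatttACTACGTggtatttata
Smarcc1, coding: aatatgctgaACTACGTgcccggcagc
Smarca4, coding: cttaacacacACTACGTggcccctcgg
Smarcal1, coding: gaagctacagACTACGTgcacaaggac
Chd8, coding: ttcaatccagACTACGTagaggtggat
Chd9, coding: tttaaccctgACTACGTtgaagtagac

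The Smarcc2 site lies in exon 28 of 28, at chr10:128489077-128489083, and the Kdm5a site in exon 28 of 28, at chr6:120443479-120443485, both on the plus strand of GRCm38. Of the coding sites, that of Smarcc1 lies in exon 26 of 28 at chr9:110221963-110221969 and that of Smarca4 in exon 19 of 34 at chr9:21667248-21667254. The Smarcal1 site lies in exon 16 of 17 at chr1:72629458-72629464 and the Chd9 site in exon 8 of 38 at chr8:90983487-90983493, these 4 on the plus strand, and the Chd8 site in exon 10 of 38 at chr14:52224681-52224687 on the minus strand. Smarcc2 and Chd8 carry the 8mer. The Chd8 and Chd9 sites lie at nucleotides 2171 and 2309 of their coding regions, and 20 of the 27 bases printed for these paralogues are identical. These coordinates are those of GRCm38, not of mm9, the build named in the submitters' processing notes.

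Members with a match were found on both sides of 0. Smarcc2, with the 8mer in its 3′-UTR, had 5979 counts with the mimic and 4524 with the scramble control, a log2 ratio of mimic to scramble of 0.40 (95% counting interval 0.35 to 0.46). Kdm5a, with the 7mer-m8 match in its 3′-UTR, had 3979 and 4596 counts and a log2 ratio of -0.21 (-0.27 to -0.15). The interval was derived from a Clopper-Pearson interval (exact) for the fraction of a gene's reads found with the mimic. It covers counting error only and is the interval in parentheses after each log2 ratio below. Among the 5 members with a match in the coding region, the log2 ratio was -0.49 in Chd9, -0.41 in Smarcc1, -0.14 in Smarca4, -0.12 in Chd8 and 0.20 in Smarcal1. Thus 4 of the 5 were lower in the mimic library, beside 29 of the 47 members with at least 20 counts and 6102 of all 12186 genes. Over all genes kept, the median log2 ratio was -0.028 with a 7mer-m8 match in the coding region and -0.0007 without. For a match in the 3′-UTR these medians were -0.015 and -0.0007. The median of the 5, -0.14, was close to the -0.085 of the members without a coding match. After the regression on length and GC content described below, these 5 values were 0.031, -0.095, 0.093, 0.13 and 0.15, in the same order. Smarcc2 and Kdm5a, with a match in the 3′-UTR, were then at 0.58 and 0.35.

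Of the 50 members, 47 had at least 20 counts over both libraries and are described by a log2 ratio. Kdm5d, the Y-linked paralogue of Kdm5c, had 0 counts in both libraries, which allows up to 3 counts or 0.161 CPM in each. Kdm4d had 5 counts with the mimic and 4 with the scramble control, and Chd7 had 8 and 5, too few for a ratio. The other members were well covered, with a median of 2048 counts with the mimic and 2380 with the scramble control, against 644 and 629 for all genes kept.

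More members were lower than higher in the mimic library, and their log2 ratios had a smaller SD than those of all genes. The counting interval was below 0 for 27 members, above 0 for 14 and included 0 for 6, against 3960, 3832 and 4394 of all genes. The median log2 ratio of the members was -0.14, with 29 below 0 and 18 above, against a median of -0.0007 over all 12186 genes kept. The interquartile range was -0.31 to 0.11, and the SD over members was 0.38, against 0.58 over all genes. Restricted to genes with at least 200 counts, the SD was 0.34 over 44 members and 0.49 over 10113 genes. A log2 ratio of at least 1.5-fold was used as the call. By this rule 4 of 47 members (8.51%) were lower in the mimic library, beside 8.94% of all genes, and 2 (4.26%) were higher, beside 11.7% of all genes. With a counting interval off 0 also required, the members called were still 4 lower, beside 8.04% of all genes, and 2 higher, beside 10.3%. The share called lower was thus near the background, and no member reached a 2-fold difference in either direction, beside 2.95% of all genes lower and 3.96% higher. Fewer mRNA molecules per cell, fewer contributing cells and less binding to Ago2 cannot be told apart in these libraries, and no input RNA was analysed here.

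**Figure D1:**
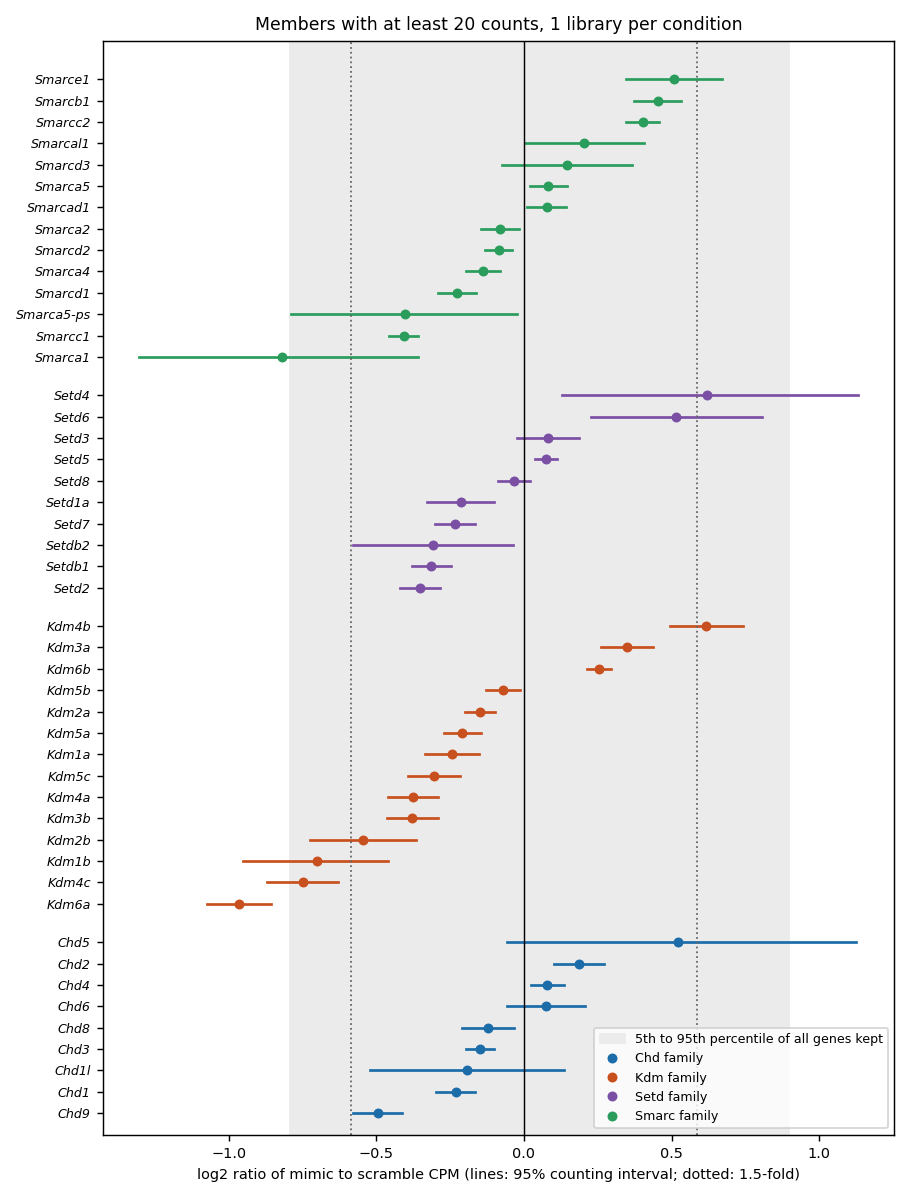
Log2 ratio of mimic to scramble CPM for the 47 members with at least 20 counts, grouped by family, with lines for the 95% counting interval (counting error only, 1 library per condition), dotted lines at 1.5-fold and a grey band from the 5th to the 95th percentile of all genes kept (-0.79 to 0.90). Kdm6a at -0.97 and Smarca1 at -0.82 are the 2 members outside the band, and 11 of the 14 Kdm members lie below 0.

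Among the 4 families, the Kdm family had the lowest median log2 ratio, -0.27, with 11 of 14 members below 0 and all 11 intervals below 0. Intervals off 0 are common at this depth, being below 0 for 3960 and above 0 for 3832 of all 12186 genes. The Chd family had a median of -0.12, with 5 of 9 members below 0, and the Setd family had -0.12, with 6 of 10 below 0. The Smarc family was balanced, with 7 members below 0, 7 above and a median of -0.0019. Those below 0 include the processed pseudogene Smarca5-ps, at -0.40. The summed counts of the Kdm members were 39133 with the mimic and 41921 with the scramble control, a log2 ratio of -0.10 (-0.12 to -0.080), and Kdm6b, the Kdm gene with the most reads, was higher in the mimic library. These family differences were not tested, since members are not replicates of a condition.

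The 2 H3K27 demethylases had log2 ratios of opposite sign. Kdm6a, the X-linked enzyme also known as Utx, had 1042 counts with the mimic and 2034 with the scramble control. Its log2 ratio of -0.97 (-1.07 to -0.86) made it 1.95-fold lower and put it at percentile 3.25 of all genes. Kdm6b, an inducible enzyme also known as Jmjd3, had 10186 and 8540 counts, a log2 ratio of 0.25 (0.21 to 0.30), and thus went the other way.

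The Kdm4 enzymes, which demethylate H3K9 and H3K36, were also divided. Kdm4b had 1370 counts with the mimic and 892 with the scramble control, 1.53-fold higher with a log2 ratio of 0.62 (0.50 to 0.74). Kdm4c had 902 and 1516, 1.68-fold lower with a log2 ratio of -0.75 (-0.87 to -0.63). Kdm4a, with 2024 and 2626 counts, lay between them at -0.38 (-0.46 to -0.29). The H3K9 demethylases Kdm3a and Kdm3b showed a smaller contrast of the same kind. Kdm3a had 2390 and 1877 counts, a log2 ratio of 0.35 (0.26 to 0.44), and Kdm3b had 1922 and 2497 counts, a log2 ratio of -0.38 (-0.46 to -0.29).

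The 5 measured enzymes of the Kdm1 and Kdm5 groups, which demethylate H3K4, all lay below 0, beside 29 of the 47 members and 6102 of all 12186 genes. The amine oxidase Kdm1a, also known as Lsd1, had 1828 counts with the mimic and 2163 with the scramble control, a log2 ratio of -0.24 (-0.33 to -0.15). Its relative Kdm1b had 223 and 363 counts and was 1.63-fold lower, with a log2 ratio of -0.70 (-0.95 to -0.46). The JmjC enzymes of the Kdm5 group were nearer to 0, with log2 ratios of -0.21 in Kdm5a, -0.071 in Kdm5b and -0.30 in Kdm5c. For Kdm5b the counts were 4851 and 5095, and for Kdm5c 1929 and 2380. Both H3K36 demethylases of the Kdm2 group were below 0, Kdm2a with 6048 and 6702 counts at -0.15 (-0.20 to -0.098) and Kdm2b with 439 and 640 counts at -0.54 (-0.72 to -0.37), the latter just short of 1.5-fold. After the regression on length and GC content described below, Kdm5a, Kdm5b and Kdm2a were above 0, at 0.35, 0.38 and 0.27. Kdm1a, Kdm1b, Kdm5c and Kdm2b stayed below 0, at -0.21, -0.43, -0.034 and -0.35.

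In the SWI/SNF complex, the ATPases and the Smarcb1, Smarcc, Smarcd and Smarce1 subunits all stayed under 1.5-fold. These are too few genes to set against the 8.94% lower and 11.7% higher of all genes. Smarca2 had 3917 counts with the mimic and 4140 with the scramble control, a log2 ratio of -0.081 (-0.14 to -0.017), and Smarca4 had 4825 and 5308, a log2 ratio of -0.14 (-0.19 to -0.082). The scaffold subunits Smarcc1 and Smarcc2 differed in opposite directions. Smarcc1 had 5706 counts with the mimic and 7563 with the scramble control, a log2 ratio of -0.41 (-0.46 to -0.36), beside 0.40 for Smarcc2. The core subunit Smarcb1, a tumour suppressor, had 3086 and 2254 counts and a log2 ratio of 0.45 (0.37 to 0.53). Smarce1, a DNA-binding subunit with an HMG domain, had 751 and 528 counts and a log2 ratio of 0.51 (0.35 to 0.67). All 3 of Smarcc2, Smarcb1 and Smarce1 were higher in the mimic library by more than counting error, and none reached 1.5-fold. The alternative subunits Smarcd1, Smarcd2 and Smarcd3 had log2 ratios of -0.23, -0.085 and 0.15, and the interval of Smarcd3 included 0.

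The ISWI ATPases were present at very different levels. Smarca5 had 4280 counts with the mimic and 4040 with the scramble control, a log2 ratio of 0.083 (0.020 to 0.14). Smarca1 had only 61 and 108 counts and was 1.77-fold lower, with a log2 ratio of -0.82 (-1.30 to -0.36). The processed pseudogene Smarca5-ps was listed with 102 and 135 counts, but reads of such a copy and of Smarca5 are hard to assign, so this value is uncertain. Of the remodellers outside these complexes, Smarcad1, which acts in DNA repair and heterochromatin maintenance, had a log2 ratio of 0.077 (0.011 to 0.14) from 3859 and 3657 counts. Smarcal1, an annealing helicase at stalled replication forks, had 0.20 (0.0046 to 0.40) from 445 and 386 counts.

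None of the 9 Chd members with a ratio reached 1.5-fold, too few genes to set against the 8.94% lower and 11.7% higher of all genes. After the regression on length and GC content described below, Chd2 at 0.63 and Chd5 at 0.90 did. Chd9 was the lowest, with 2048 counts with the mimic and 2885 with the scramble control and a log2 ratio of -0.49 (-0.58 to -0.41). Chd1, which binds trimethylated H3K4, had 3478 and 4082 counts and a log2 ratio of -0.23 (-0.30 to -0.17), whereas its close relative Chd2 had 2424 and 2127 counts and 0.19 (0.10 to 0.27). The NuRD ATPases with most reads were Chd3, with 7079 and 7841 counts and a log2 ratio of -0.15 (-0.19 to -0.10), and Chd4, with 5214 and 4933 counts and 0.079 (0.023 to 0.14). Chd5, the third of them, had 62 and 43 counts, and its log2 ratio of 0.52 had an interval that included 0 (-0.057 to 1.12). In Chd8 the counts were 2047 and 2225, in Chd6 957 and 908, and in Chd1l 148 and 169, with log2 ratios of -0.12, 0.075 and -0.19, and for the last of these and for Chd6 the interval included 0.

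Of the 10 Setd members, 6 had a log2 ratio below 0, and for 5 of these the counting interval was below 0. Setd2, which trimethylates H3K36, had 3204 counts with the mimic and 4089 with the scramble control, a log2 ratio of -0.35 (-0.42 to -0.29). Setdb1, an H3K9 methyltransferase that silences retrotransposons, had 3262 and 4051 counts and -0.31 (-0.38 to -0.25). Setd1a, a catalytic subunit of an H3K4 methyltransferase complex, had 1177 and 1365 counts and -0.21 (-0.33 to -0.10). Setd7 had 3267 and 3840 counts and -0.23 (-0.30 to -0.17), and Setdb2 had 206 and 255 counts and -0.31 (-0.58 to -0.038). Setd8, the H4K20 methyltransferase now named Kmt5a, had 5452 and 5583 counts and a log2 ratio of -0.035 whose interval included 0 (-0.089 to 0.019).

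The Setd members above 0 were Setd3, Setd4, Setd5 and Setd6. Setd4 had 88 counts with the mimic and 57 with the scramble control, 1.54-fold higher with a log2 ratio of 0.62 (0.13 to 1.13). Setd6, known for methylating the NF-kappaB subunit RelA, had 246 and 172 counts and a log2 ratio of 0.51 (0.23 to 0.81). Setd5 had the most reads of all members, 12204 and 11576, and a log2 ratio of 0.076 (0.039 to 0.11). Setd3, an actin histidine methyltransferase, had 1535 and 1449 counts and 0.082 (-0.022 to 0.19). The 2 members furthest above 0 in this family were thus the 2 with the fewest reads.

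Levels between genes were compared as CPM per kb of the longest coding transcript. In the scramble library the highest members were Smarcd2 at 153, Setd8 at 109, Setd5 at 91.8, Smarcb1 at 72.7 and Smarcc1 at 70.2 CPM per kb. In the mimic library the same genes were at 145, 107, 96.7, 99.5 and 52.9 CPM per kb. Kdm6b was the highest demethylase, at 68.8 in the scramble library and 82.0 in the mimic library, and Chd3 the highest Chd gene, at 57.8 and 52.2. At the low end, Chd5 was at 0.243 and 0.350 and Smarca1 at 1.21 and 0.681 CPM per kb.

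**Figure D2:**
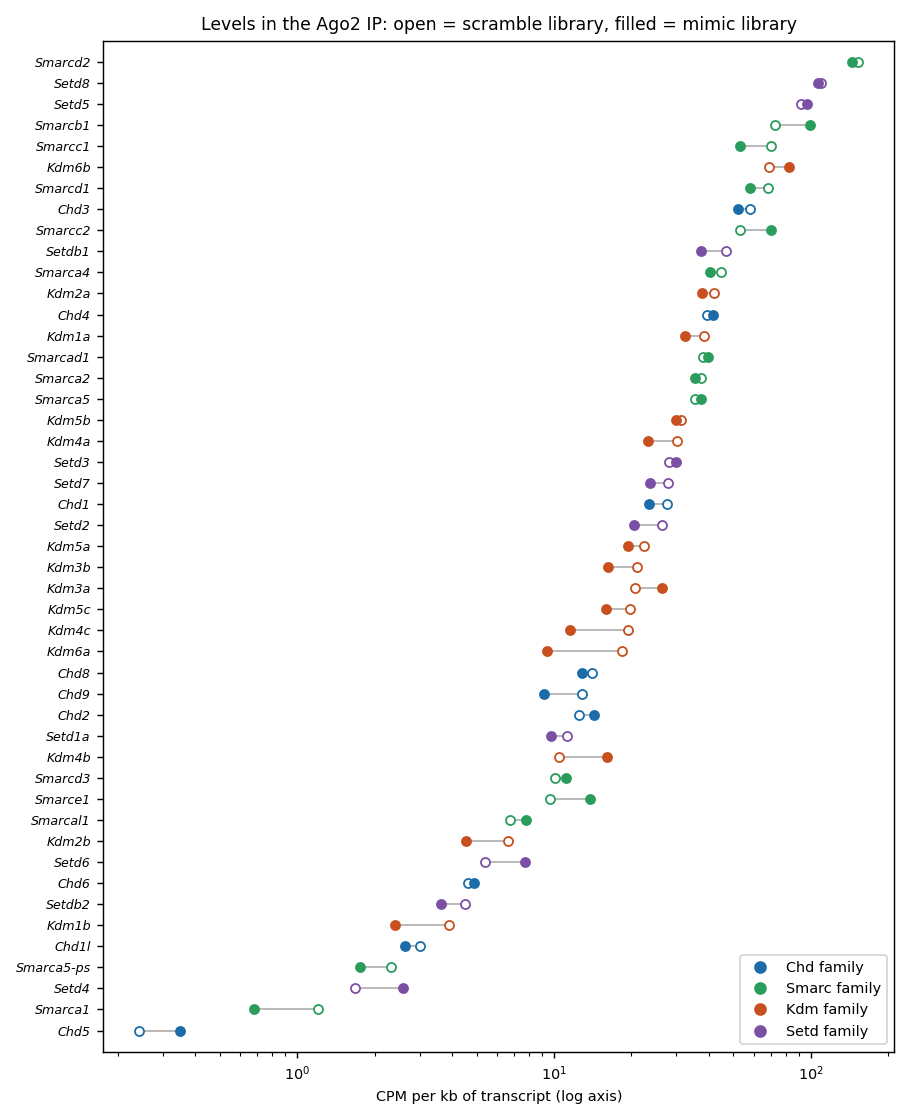
Level of each of the 47 members as CPM per kb of transcript on a log axis, with open points for the scramble library and filled points for the mimic library, ordered by the scramble level. The order runs from Smarcd2 at 153 to Chd5 at 0.243 CPM per kb in the scramble library, and the longest connecting lines are those of genes such as Kdm6a, Kdm4c and Smarca1.

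Related genes that can replace each other in a complex or share a substrate were then compared within each library, as the share each took of the counts of its group. Such a share needs no scaling between the libraries, but it is a share of reads and is not corrected for transcript length. In the SWI/SNF scaffold pair, Smarcc1 took 62.6% of the counts in the scramble library (exact 95% interval 61.7 to 63.4) and 48.8% in the mimic library (47.9 to 49.7), so the order of the 2 paralogues was reversed. For Kdm3a the share of the Kdm3 pair was 42.9% (41.4 to 44.4) in the scramble library and 55.4% (53.9 to 56.9) in the mimic library, also a change of order. In the Kdm4 group, Kdm4b took 17.7% in the scramble library and 31.9% in the mimic library, while Kdm4c took 30.1% and 20.97%. Kdm6a took 19.2% of the Kdm6 counts in the scramble library and 9.28% in the mimic library.

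Some further groups also differed between the libraries. Chd1 took 65.7% of the Chd1 and Chd2 counts in the scramble library and 58.9% in the mimic library. Chd9 took 47.9% and 40.5% of the Chd6 to Chd9 counts. The SWI/SNF ATPase and Setdb groups kept a nearly constant composition. Smarca2 took 43.8% of the SWI/SNF ATPase counts in the scramble library and 44.8% in the mimic library, a difference in log2 ratio from Smarca4 of 0.058 (95% counting interval -0.027 to 0.14). Setdb1 took 94.1% of the Setdb counts in each library, and the difference in log2 ratio between Setdb1 and Setdb2 was -0.0047 (-0.28 to 0.27). Over the 14 groups, 24 pairs of related genes could be compared, 20 had a difference in log2 ratio whose counting interval did not include 0, and 7 differed by at least 1.5-fold. The same counts were not made for pairs of unrelated genes, so they describe these pairs and are not a trait of paralogues. The largest differences were 1.37 (1.20 to 1.54) between Kdm4b and Kdm4c and -1.22 (-1.33 to -1.10) between Kdm6a and Kdm6b.

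**Figure D3:**
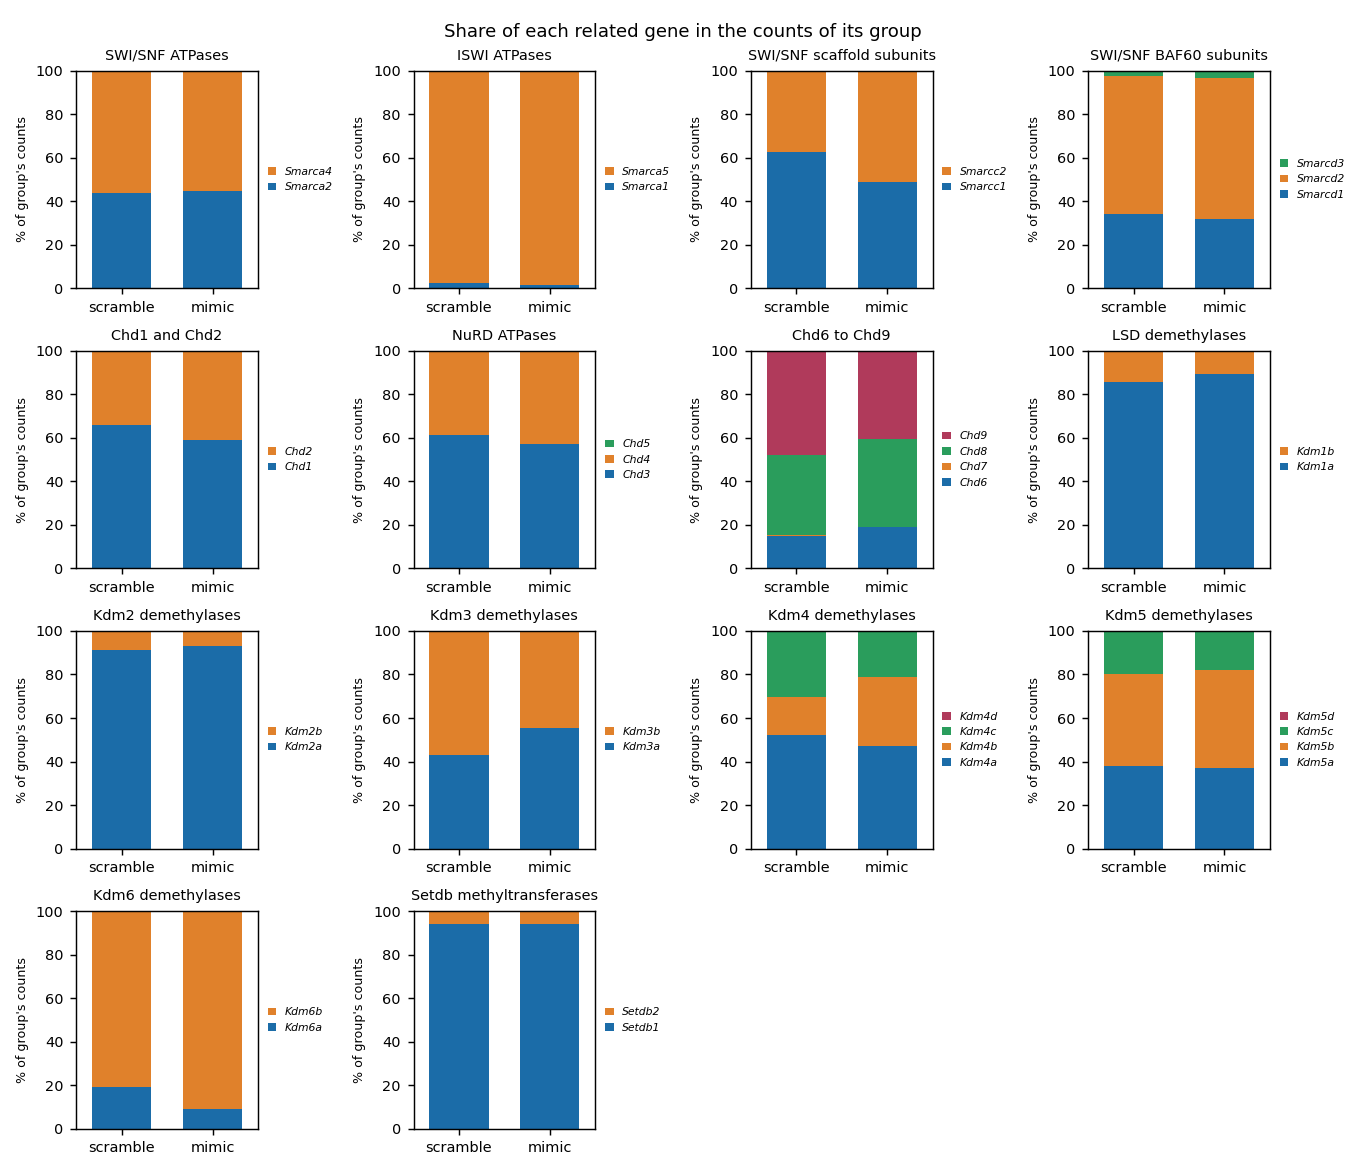
Stacked bars of the percent of a group's counts taken by each related gene, in the scramble and the mimic library, for 14 groups of paralogues (1 library per condition, bars start at 0). The share of Smarcc1 is 62.6% in the scramble bar and 48.8% in the mimic bar, while Smarca2 and Setdb1 keep nearly the same share.

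Transcript length and base composition moved with the log2 ratio across all genes, and the members are long. The median transcript of the members was 5180 nucleotides, against 3168 for all genes, and that of the Chd family was 8509. Across 12073 genes the log2 ratio had a Spearman correlation of -0.44 with transcript length, and across 11763 genes 0.20 with the GC content of the coding region. Within the members the values were -0.19 with length (n = 47) and 0.35 with coding GC (n = 46). Genes are not independent replicates, all points come from the same 2 libraries, and these correlations are descriptions.

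A regression of the log2 ratio on length and GC content of the coding region and the 3′-UTR explained 18.6% of the variance over 11747 genes. After it the median of the members turned from -0.14 to 0.12 and that of the Chd family from -0.12 to 0.22. The Smarc median was -0.0019 over 14 genes before it and 0.15 over 13 genes after it. Smarca5-ps, without an annotated coding region, was not in the fit, so these 2 Smarc values are not over the same genes. After the regression the Kdm family was at -0.083 and the Setd family at -0.035, against 0.0067 for all genes. The sign of the members' median thus differed with and without length and GC content in the fit. After the regression Kdm6a, at -0.59, was the 1 member at least 1.5-fold lower, beside 6.99% of all genes. Kdm3a at 0.59, Chd2 at 0.63, Kdm4b at 0.74 and Chd5 at 0.90 were at least 1.5-fold higher, beside 8.63% of all genes. Kdm4c, Smarca1 and Kdm1b, at -0.51, -0.47 and -0.43, no longer reached 1.5-fold, and neither did Setd4, at 0.44.

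Of the 24 pairs of related genes, 23 kept the sign of their difference after the regression, and 9 then differed by at least 1.5-fold. The difference was -1.03 between Kdm6a and Kdm6b, 1.25 between Kdm4b and Kdm4c, -0.68 between Smarcc1 and Smarcc2 and 0.72 between Kdm3a and Kdm3b. Other pairs moved more, Chd8 and Chd9 from 0.37 to 0.10, Smarcd1 and Smarcd3 from -0.37 to -0.081, Kdm1a and Kdm1b from 0.46 to 0.22 and Kdm5a and Kdm5c from 0.095 to 0.38. The member with the higher GC content in its coding region had the higher log2 ratio in 16 of the 24 pairs. Kdm6b with 61.7% GC against 44.0% in Kdm6a and Kdm4b with 59.1% against 44.7% in Kdm4c were among them, whereas Kdm3a with 45.8% against 53.6% in Kdm3b was not. The member with the shorter coding region had the higher log2 ratio in 13 of the 24 pairs. Some pairs share a gene, so they are not independent, and neither count was tested.

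**Figure D4:**
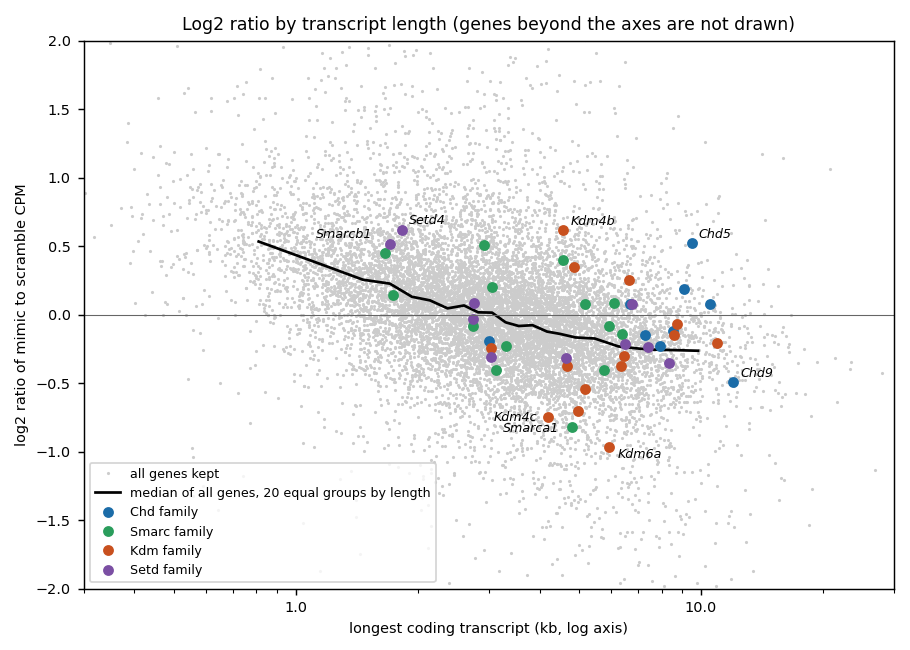
Log2 ratio of mimic to scramble CPM against the length of the longest coding transcript on a log axis, with grey points for all genes kept, a black line for their median in 20 equal groups by length, and coloured points for the 47 members. The line slopes downward (Spearman correlation -0.44 across genes), and Chd5 and Kdm4b lie well above it while Kdm6a, Smarca1 and Kdm4c lie below it.

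Genes whose products work with the members were described from lists of known complexes. Over 128 partner genes with at least 20 counts, the median log2 ratio was -0.090, 6 were at least 1.5-fold lower and 10 at least 1.5-fold higher, beside 8.94% and 11.7% of all genes, which is the background for each list count below. Of the 17 SWI/SNF partner subunits, 0 were lower and 1 higher by 1.5-fold, with Arid1a, a DNA-binding subunit, lowest at -0.56 and Dpf1 highest at 0.91. In the CoREST list, whose complex contains Kdm1a, 2 of 11 genes were at least 1.5-fold lower and 0 higher, too few genes to set against 8.94% and 11.7%. The lowest was the scaffold Rcor1, with 183 counts with the mimic and 565 with the scramble control and a log2 ratio of -1.62, and the highest was Rcor2 at 0.37.

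The NuRD list, built around Chd3, Chd4 and Chd5, held 1 of 12 genes lower and 2 higher, from Gatad2b at -1.50 to Mta3 at 1.24. The INO80, SRCAP and TIP60 list had 0 of 26 lower and 4 higher, from Ino80 at -0.52 to the helicase Ruvbl2 at 1.19. Other histone lysine methyltransferases numbered 25, with 1 lower and 1 higher, from the H3K79 methyltransferase Dot1l at -1.06 to Prdm9 at 0.67. Other JmjC proteins numbered 13, with 1 lower and 2 higher, from Mina at -0.87 to Jmjd6 at 1.32. The ISWI list had 1 of 11 lower (Baz1a, at -0.74) and 0 higher (Chrac1 highest, at 0.45). In the COMPASS list, from Paxip1 at -0.42 to Dpy30 at 0.47, and the PRC2 list, from Eed at -0.40 to Mtf2 at 0.013, 0 of 11 and 0 of 9 genes reached 1.5-fold in either direction.

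**Figure D5:**
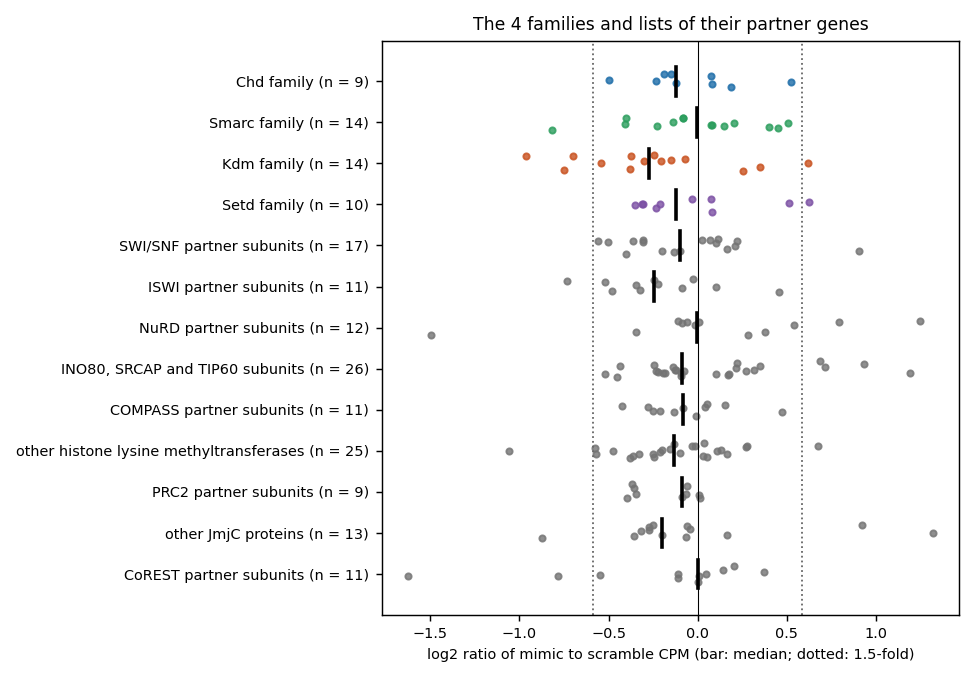
Log2 ratio of mimic to scramble CPM for each member (coloured, by family) and for each gene of 9 partner lists (grey), with black bars at the list medians and dotted lines at 1.5-fold. Medians lie between -0.27 for the Kdm family and -0.0007 for the CoREST list, and the widest single values are Rcor1 at -1.62 and Jmjd6 at 1.32.

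Zinc finger and splicing factor genes were set beside the members. The 328 zinc finger protein (Zfp) genes with at least 20 counts had a median log2 ratio of -0.14 and an SD of 0.39, with 12.2% at least 1.5-fold lower and 1.83% higher, beside 8.94% and 11.7% of all genes. The 28 SR and hnRNP splicing factor genes had a median of 0.13 and an SD of 0.26, with 0 at least 1.5-fold lower and 1 higher. The members' median of -0.14 was near that of the Zfp genes before the regression on length and GC content. After it the medians were 0.12 for the members, -0.013 for the Zfp genes and 0.096 for the splicing factors, so that likeness was not kept. None of these differences was tested.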

How the data were processed

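Ago2-bound RNA was immunoprecipitated from TM4 cells, and 1 library was sequenced per condition. The deposited values are raw counts of reads for each gene symbol, with no normalization by the authors. The submitters' notes name CASAVA 1.8.2, TopHat2 2.0.8b, HTSeq and the build mm9, while annotation and strand setting are not given in the sources used here. HTSeq summary rows were left out. Of all entries, 39.8% (mimic) and 35.6% (scramble) had several alignments, 6.84% and 7.89% fell in no gene and 0.653% and 0.585% overlapped several genes. Exonic bases of 21 members are shared with another annotated gene, so their counts are uncertain where strand was ignored. Among these members are Kdm1b, Kdm2b, Kdm6b, Smarcc1, Chd9, Setd4 and Setdb1, whereas Kdm6a, Kdm4b, Kdm4c, Smarca1 and Smarcc2 are not.

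A gene was kept when its summed counts were 20 or more. TMM factors (edgeR 4.0.16 under R 4.3.3) were 1.0026 for the mimic and 0.9974 for the scramble library, and log2 ratios were computed after adding 0.5 counts. With a single library in each condition the quasi-likelihood test was not possible, so calls are folds. A floor of 3 counts is 0.161 CPM in each library. Counting intervals treat reads as independent molecules, which they may not be. Sequences and lengths came from GENCODE M21 (12073 of 12186 kept genes matched by symbol, all 50 members). Scripts were tested on simulated data. Python 3.11.15, numpy 2.4.6, scipy 1.17.1 and pandas 2.3.3 were used. All members may be named, and from each partner list the highest and the lowest gene. Members and lists were chosen with earlier results of these data known. Alternatives were DESeq2 1.42.0 size factors or total counts, other count minimums, a 2-fold call, a call that also needed the counting interval, the regression, summed counts, and 6mer or 8mer matches.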

Additional observations from a re-analysis of the deposited data

Results flagged for a closer look

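Entries aligned to more than one place, which no comparison here uses, made up 39.8% of all entries counted for the mimic library. That was above the 35.6% of all entries for the scramble library.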

How the results depend on the processing

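Of 48 recomputed group results, 32 stayed within the counting interval of the middle member or within 1.5 times of a count, and so did all 94 recomputed log2 ratios of single members under DESeq2 size factors and total counts. Some shifts that this rule let pass were large. The Setd median of -0.12 became -0.21 with at least 200 counts and -0.035 after the regression. The Smarc median of -0.0019 became 0.077 with at least 200 counts. After the regression on length and GC content the median log2 ratios were 0.22 (Chd), 0.15 (Smarc), -0.083 (Kdm) and 0.12 (all members). The Smarc and all-member values are without Smarca5-ps. By the same residuals 1 member was at least 1.5-fold lower and 4 higher. Summed counts gave -0.10 for Kdm and -0.072 for all members, since abundant genes weigh more. With at least 1 count the Chd median was -0.023, because Chd7 entered. With at least 200 counts 1 member was higher, Setd4 having fewer. At 2-fold 0 members were lower and 0 higher. The 6mer match was found in 4 members' 3′-UTRs and 11 coding regions, and the 8mer in 1 and 1. No paired analysis was possible because each condition has 1 library, and for the same reason no library could be left out. Members with few reads, such as Chd5, Smarca1 and Setd4, have wide intervals.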
